A study of Mus musculus with 23 samples.

Results

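Genes through which dendritic cells are known to restrain T cells were followed in sorted spleen cells of Balb/C mice. They are the tryptophan enzymes Ido1 and Ido2, the arginases Arg1 and Arg2, the retinaldehyde dehydrogenases Aldh1a1 and Aldh1a2, the 3 TGF-beta ligand genes Tgfb1, Tgfb2 and Tgfb3, and the cytokine gene Il10. The 10 members were chosen by function and found by symbol among 47729 genes, and 9 of them passed the filter on low counts, the exception being Ido2. RNA was sequenced from 23 libraries, each made from wild type Balb/C cells that were pooled over mice before sorting. Each pool was sorted into DC1a (CD8hi CD172-), DC1b (CD8Int CD172+), DC2 (CD8lo CD172hi) and DC3 (CD8- CD172lo) cells. Untreated mice gave 2 pools and therefore 2 libraries of each subset. Mice labelled TLI, which the labels do not expand and which commonly stands for total lymphoid irradiation, gave 4 pools and 4 libraries each of DC1a, DC1b and DC3 cells, with 3 of DC2 cells since the samples hold no DC2 library of TLI pool 2. Libraries are named here by their pool number. The labels give a batch as well: batch 1 holds the 8 untreated libraries with the 7 of TLI pools 1 and 2, and batch 2 holds the 8 of TLI pools 3 and 4. The ages of the mice, the dose and the time after treatment are not in the labels.

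Indoleamine dioxygenases turn tryptophan into kynurenine, and arginases turn arginine into ornithine and urea, so that both pathways can remove from the surroundings an amino acid that dividing T cells need. Retinaldehyde dehydrogenases make retinoic acid, which together with TGF-beta favours regulatory T cells and gut homing and is best known from intestinal CD103+ dendritic cells. TGF-beta is secreted in a latent form that integrins and proteases must activate, so the level of its RNA does not give the level of active ligand, and IL-10 limits the activation of dendritic cells and macrophages.

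The deposited estimated counts summed to between 19256447 and 36997890 per library. A gene with 3 counts or fewer in a library was taken as at the floor, which lay between 0.0811 and 0.156 CPM, the count scaled to a common library total. The reads were amplified and carry no molecular identifiers, so this floor covers counting error only. The sorted cells carried the RNA of their gates only in part, and the exceptions bear on the values below. The untreated DC1b libraries held all 8 plasmacytoid DC markers, with summed levels of 5856 to 8317 CPM against 185 to 322 CPM in TLI DC1b libraries. The TLI DC1b libraries instead had sums of 8184 to 26720 CPM for 15 monocyte and macrophage markers and of 1468 to 21072 CPM for 10 neutrophil markers. In untreated DC1b libraries these sums were 4353 to 7252 CPM and 1.16 to 20.2 CPM. Cd8a was at 0.327 CPM in the DC1b library of TLI pool 4, against 79.0 to 342 CPM in the other 3 TLI DC1b libraries. Summed erythroid markers were 8681 to 59849 CPM in the 7 TLI libraries of batch 1 and 60.0 to 3196 CPM in the 8 of batch 2. DC3 libraries had cDC1 markers at 1641 to 2577 CPM in sum but Cd8a at 0.228 to 41.6 CPM. B and plasma cell markers summed to 4323 to 9338 CPM in untreated DC3 and 4.26 to 106 CPM in untreated DC2 libraries. In TLI mice they were 953 to 5347 in DC3, 380 to 3433 in DC2 and 1101 to 14352 CPM in DC1b libraries. NK cell markers reached 2623 CPM in TLI DC3 libraries. Sirpa, the gene of CD172, was at 9.22 to 309 CPM in TLI DC2 and 5.10 to 146 CPM in TLI DC1b libraries.

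Most of these genes were near or below detection in most libraries, and Arg2 and Tgfb1 were the exceptions. Tgfb1 was above the floor in 23 of 23 libraries and Arg2 in 20 of 23. Aldh1a2 and Tgfb3 were above it in 9 libraries each, Il10 in 8, Ido1, Arg1 and Tgfb2 in 5 each, Aldh1a1 in 3 and Ido2 in 2. DC1a libraries had 5 to 8 of the 10 genes above the floor (median 6), DC2 libraries 2 to 4 (median 3), DC3 libraries 1 to 5 (median 3) and DC1b libraries 1 to 8 (median 3). The untreated DC1b libraries were the poorest group, with 1 and 2 of the 10 genes. Of the 80 combinations of a gene and a group, 24 (30%) had the gene above the floor in some libraries of the group and at the floor in others, against 24.7% over all genes passing the filter. In bulk samples fewer cells that express a gene and less RNA per cell cannot be told apart, so a level of 0 in 1 pool and of several CPM in the next may be either.

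**Figure D1:**
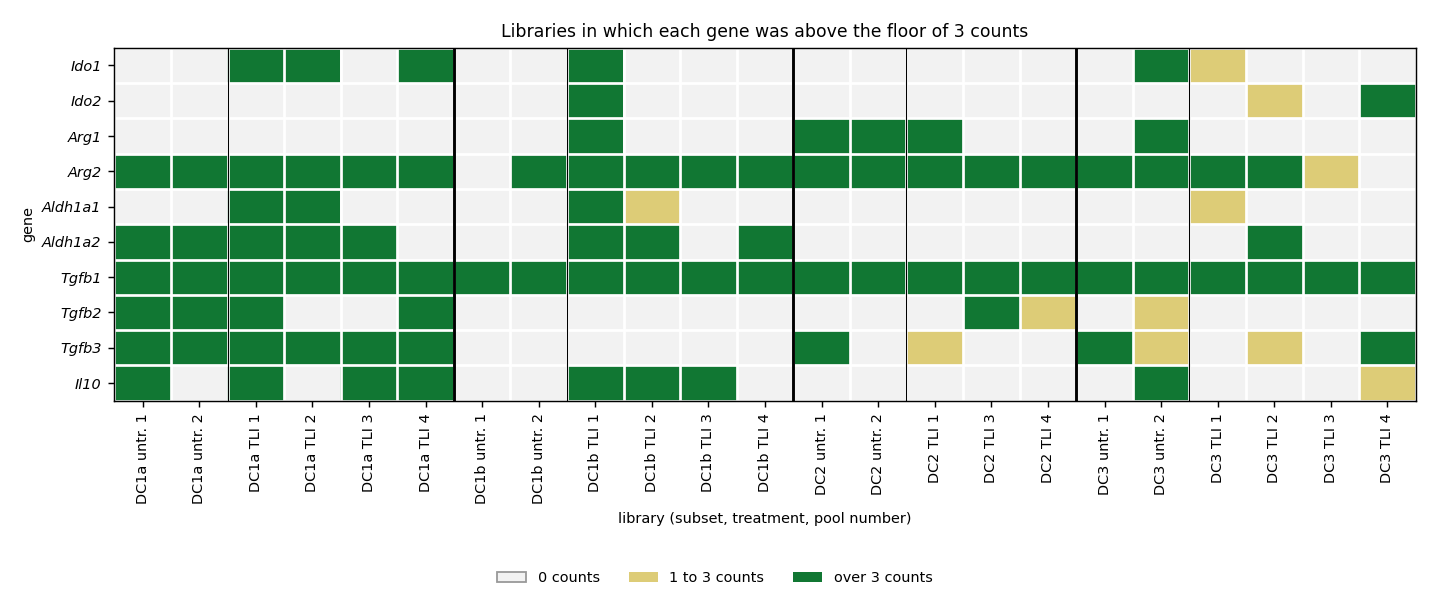
Detection of the 10 genes (rows) in the 23 libraries (columns, ordered by subset, treatment and pool number): green, over 3 counts; yellow, 1 to 3 counts; grey, 0 counts. Tgfb1 was above the floor in all 23 libraries, Tgfb3 in 6 of 6 DC1a libraries and in no DC1b library, and Il10, Aldh1a1, Aldh1a2, Ido1 and Ido2 had 0 counts in all 5 DC2 libraries.

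Levels of different genes were compared per length, as RPKM, which is CPM divided by the kilobases of annotated exon. Arg2 had the highest mean over the 23 libraries, 16.3 RPKM, followed by Tgfb1 at 3.67 RPKM, Aldh1a2 at 1.01 RPKM and Il10 at 0.762 RPKM. The other 6 genes had means of 0.404 RPKM (Ido1) or less, down to 0.00621 RPKM for Ido2. Arg2 and Tgfb1 together held between 48.7% and 100% of the counts of the 10 genes in a library.

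**Figure D2:**
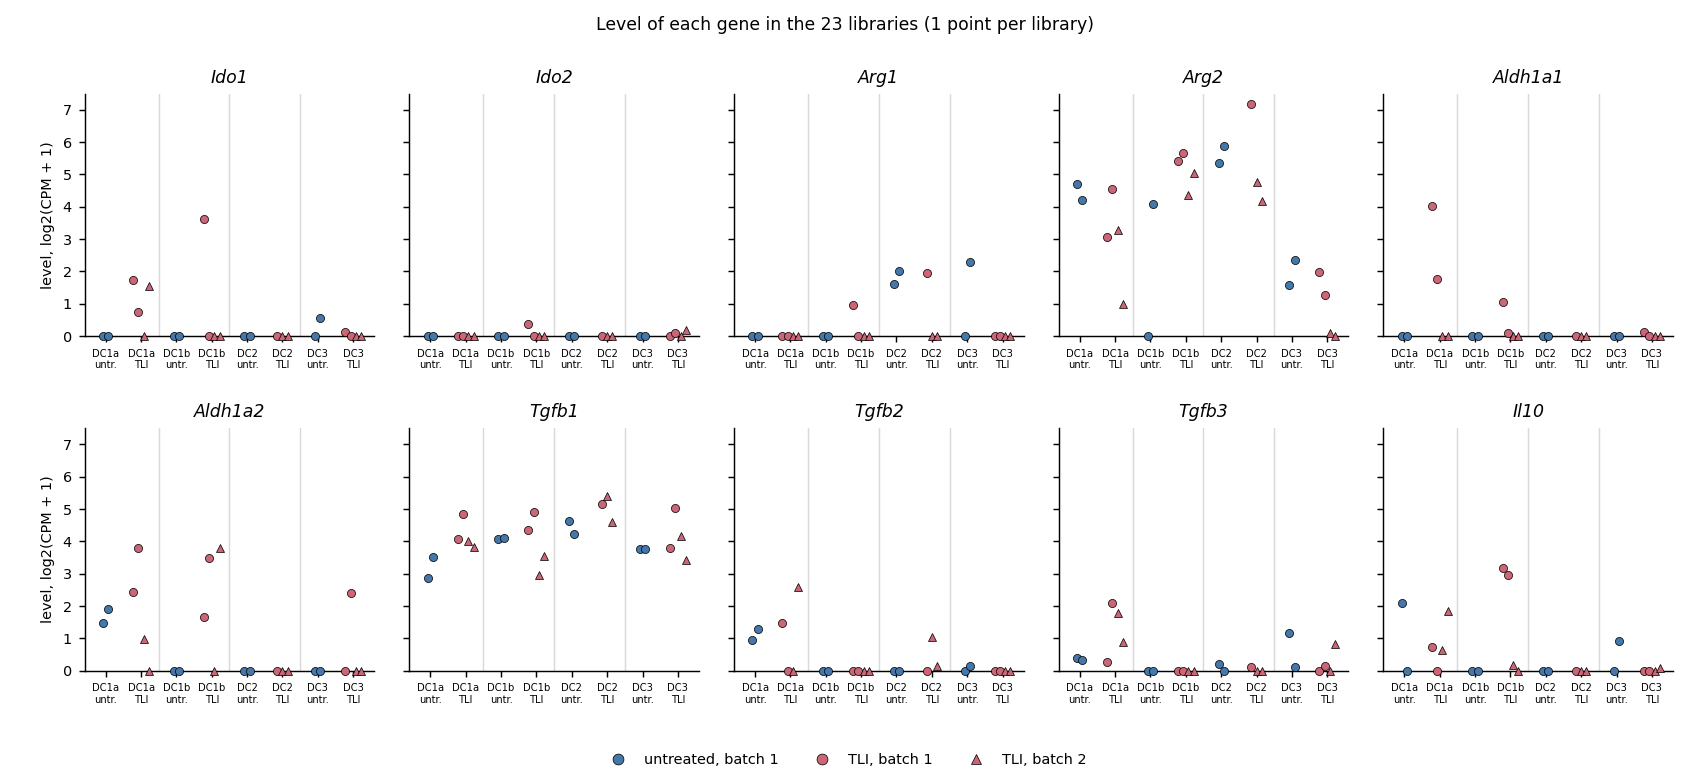
Level of each of the 10 genes as log2(CPM + 1) (vertical axis) in the 8 groups (horizontal axis), with 1 point per library: circles, batch 1; triangles, batch 2; blue, untreated; red, TLI. Arg2 and Tgfb1 are the genes detected in most groups, with Arg2 lowest in DC3 cells (0 to 4.11 CPM), while the other panels mostly show single libraries rising from 0.

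Ido1 and Ido2 lie next to each other on chromosome 8, at 24584136 to 24597009 and 24531892 to 24576333 on the minus strand (GRCm38, as for all positions here). Ido1, the inducible enzyme that starts the breakdown of tryptophan, was at 2.32, 0.662, 0 and 1.96 CPM in DC1a libraries of TLI pools 1 to 4 and at 0 in both untreated DC1a libraries. In DC1b cells it was at 11.4 CPM (264 counts) in TLI pool 1 and at 0 in the other 3 TLI and both untreated libraries. In DC3 cells it was at 0.470 CPM in untreated pool 2, at 0.0948 CPM (2 counts, at the floor) in TLI pool 1 and at 0 in the other 4 libraries. Ido1 thus appeared in 3 of 4 TLI DC1a libraries, in 1 library each of TLI DC1b and untreated DC3 cells, and had 0 counts in all 5 DC2 libraries. The mean of TLI DC1a libraries (1.23 ± 1.09 CPM, SD, n = 4) was at least 11.2-fold higher than untreated DC1a libraries, which were at the floor, but the groups overlapped at 0 and edgeR did not call the difference (adjusted p = 0.503), whereas DESeq2 did (adjusted p = 0.00140). Against DC2 cells of TLI mice, also at the floor, it was at least 11.5-fold higher, again called by DESeq2 (adjusted p = 3.84e-06) but not by edgeR (adjusted p = 0.229). DESeq2's log2 fold changes were 27.8 for TLI against untreated DC1a and -29.2 for DC2 against DC1a cells. In each comparison 1 group had only 0 counts, so these fold changes are not estimates of size. Neutrophil markers summed to 6.41 to 11.1 CPM in TLI DC1a libraries. They exceeded 2000 CPM in the DC1b library of TLI pool 4, where Ido1 was at 0. The DC1b library with the highest Ido1 also had the highest sum of neutrophil markers, 21072 CPM, and their part in its Ido1 level was not tested. Ido2, the related enzyme of lower activity, had 7 counts (0.303 CPM) in that same library, 5 and 2 counts in the DC3 libraries of TLI pools 4 and 2, and 0 counts in the other 20 libraries.

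Arg1, the cytosolic arginase of liver and of alternatively activated macrophages (chromosome 10, 24915221 to 24927484, minus strand), was seen mainly in DC2 cells. It was at 2.03 and 3.01 CPM in untreated DC2 libraries and at 2.89, 0 and 0 CPM in DC2 libraries of TLI pools 1, 3 and 4. Beyond DC2 cells it was at 3.92 CPM in 1 of 2 untreated DC3 libraries and at 0.953 CPM in the DC1b library of TLI pool 1. All 6 DC1a libraries had 0 counts, and so did all 8 libraries of batch 2. Untreated DC2 cells (2.52 ± 0.691 CPM, SD, n = 2) were at least 22.9-fold higher than untreated DC1a cells and at least 19.3-fold higher than untreated DC1b cells, both at the floor. The groups did not overlap in either comparison, as was true of 49.4% and 40.2% of all genes, and neither difference was called (edgeR adjusted p = 0.434 and 0.593).

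Arg2, the mitochondrial arginase (chromosome 12, 79130777 to 79156301, plus strand), had the highest levels in DC2 cells and the lowest in DC3 cells. In DC3 cells it was at 2.00 and 4.11 CPM in the untreated libraries and at 2.94, 1.44, 0.0703 and 0 CPM in TLI pools 1 to 4. In DC2 cells it was at 39.6 and 58.1 CPM in untreated libraries and at 144, 26.1 and 17.0 CPM in TLI pools 1, 3 and 4. Every DC2 library was therefore above every DC3 library, in untreated and in TLI mice. In DC1a cells it was at 25.3 and 17.5 CPM in untreated libraries and at 7.46, 22.4, 8.65 and 0.978 CPM in TLI pools 1 to 4. In DC1b cells it was at 0 and 16.1 CPM in untreated libraries and at 41.4, 50.2, 19.8 and 31.7 CPM in TLI pools 1 to 4. The 4 TLI DC1b libraries lay above both untreated ones, while the DC1a libraries of the 2 treatments overlapped. By group mean the order ran from TLI DC2 (62.4 ± 70.9 CPM, SD, n = 3) through untreated DC2 (48.8 ± 13.1, n = 2), TLI DC1b (35.8 ± 13.1, n = 4), untreated DC1a (21.4 ± 5.51, n = 2), TLI DC1a (9.87 ± 9.0, n = 4), untreated DC1b (8.06 ± 11.4, n = 2) and untreated DC3 (3.06 ± 1.49, n = 2) to TLI DC3 (1.11 ± 1.39, n = 4). Each group in this order overlapped the next.

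**Figure D3:**
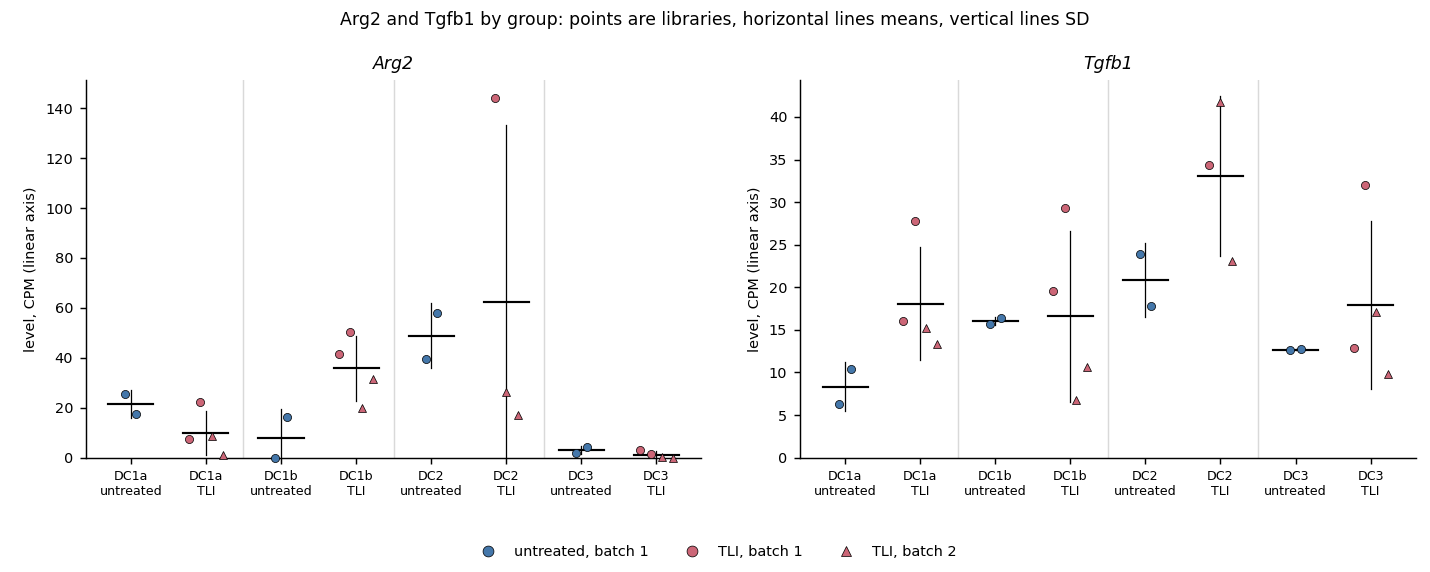
Arg2 (left) and Tgfb1 (right) in CPM on linear vertical axes that start at 0, by subset and treatment: points, libraries; horizontal lines, group means; vertical lines, 1 SD on either side, stopped at 0. All DC3 libraries lie at or below 4.11 CPM of Arg2 and all DC2 libraries at or above 17.0 CPM, while for Tgfb1 every group lies between 6.27 and 41.7 CPM.

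The lower level of Arg2 in DC3 than in DC2 cells of TLI mice was the only member difference that edgeR called, of 54 combinations of a tested member and a pair of subsets in TLI mice. Over all genes 1.38% of such combinations were called, so a single call among the members is near the background. At an unadjusted p under 0.05 there were 19 of 54, beside 12.9% over all genes, but a member that passed the filter through the group where it was high had to differ, and this count supports nothing. DESeq2 called 8 of the 54, beside 8619 of 117582 such combinations over all genes. The 8 were Arg2 in DC3 against each other subset, Ido1 in 3 pairs with DC2 cells, Aldh1a2 and Tgfb3. Among the Ido1 calls was one between DC3 and DC2 cells, both at the floor. EdgeR called 3 without a filter on low counts, 2 with a filter of 1 CPM in 2 libraries and 2 with TLI libraries alone. In the comparison of DC3 with DC2 cells 1.37% of all genes were called. The mean in DC3 cells was 0.0178 of that in DC2 cells, and the fitted log2 fold change was -6.49 ± 1.51 (SE, 95% interval -9.68 to -3.31, edgeR adjusted p = 0.0428), with no overlap between 4 and 3 libraries. The groups did not overlap for 8.16% of all genes. The call was kept by DESeq2 (adjusted p = 2.53e-06) and by edgeR without a filter (adjusted p = 0.00172), with TLI libraries alone (0.0206), with the 1 CPM filter (0.0381) and with DESeq2's size factors (0.0438). It was lost with the pool of mice as a replicate block, a fixed term in the same edgeR model (log2 fold change -6.51, edgeR adjusted p = 0.0878) and without a term for batch (-5.70, edgeR adjusted p = 0.151). Within batch 1 the log2 fold change was -5.91 (edgeR adjusted p = 0.157). Within batch 2, where both DC3 libraries were at the floor, the adjusted p of the same test was 0.177. Leaving out each of the 23 libraries in turn kept the call in 7 cases, those without untreated DC1b pool 1 or 2, TLI DC1a pool 1 or 3, TLI DC1b pool 3 or 4, or TLI DC3 pool 1 (edgeR adjusted p = 0.00621 to 0.0495). It was lost without any one of the other 16 libraries (edgeR adjusted p = 0.0504 to 0.149), while the log2 fold change stayed between -7.37 and -5.93. Without the DC2 library of TLI pool 1, the one at 144 CPM, the log2 fold change was -6.31 (edgeR adjusted p = 0.116). That library had a sum of neutrophil markers of 2328 CPM against 137 and 214 CPM in the other 2 TLI DC2 libraries. Without it and the DC1b libraries of TLI pools 1 and 4, which also exceeded 2000 CPM, the log2 fold change was -6.74 (edgeR adjusted p = 0.134). Monocyte and macrophage markers separated the same subsets, with sums of 1654 to 4443 CPM in DC3 and 6445 to 15658 CPM in DC2 libraries of TLI mice and of 2179 to 3245 and 6017 to 6754 CPM in untreated mice. In TLI DC1a libraries these sums were 618 to 2092 CPM, with Arg2 at 0.978 to 22.4 CPM. In untreated DC1a libraries they were 1068 to 1147 CPM, with Arg2 at 17.5 to 25.3 CPM. The part of these markers in the Arg2 difference was not tested.

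The other comparisons of Arg2 with DC3 cells had the same sign. In TLI mice the log2 fold change of DC3 against DC1b cells was -6.27 ± 1.5 (SE, edgeR adjusted p = 0.0524) with no overlap between the groups, as for 4.68% of all genes. It was called by DESeq2 (adjusted p = 6.38e-07) and by edgeR without a filter (0.00233), with TLI libraries alone (0.0289) and with the 1 CPM filter (0.0440). Against DC1a cells it was -4.18 ± 1.36 (SE, edgeR adjusted p = 0.254 and DESeq2 adjusted p = 0.00390), and the groups overlapped. In untreated mice the log2 fold change of DC3 against DC2 cells was -4.03 ± 1.83 (SE, edgeR adjusted p = 0.427), again without overlap, as for 42.3% of all genes with 2 libraries in each group. Between TLI and untreated DC1b cells the ratio of means over all pools was 4.44. The log2 fold change, fitted at batch 1, was 3.77 with a 95% interval of -0.04 to 7.57 (edgeR adjusted p = 0.409). These groups did not overlap, as for 20.9% of all genes. They differed as well in plasmacytoid, monocyte and neutrophil markers, as given above, and the part of these in the Arg2 values was not tested. Arg2 shares 285 bases of exon with Vti1b on the other strand. Vti1b had 1696 to 7826 counts in every library, including the 2 DC3 libraries in which Arg2 had 0 and 2 counts.

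Aldh1a1 (chromosome 19, 20492715 to 20643465, plus strand), which oxidises retinaldehyde to retinoic acid, was above the floor only in TLI libraries of batch 1. It was at 15.4 and 2.39 CPM in DC1a libraries of TLI pools 1 and 2 and at 0 in pools 3 and 4. It was at 1.08 CPM in the DC1b library of TLI pool 1, and the DC1b library of pool 2 and the DC3 library of pool 1 had 2 counts each. All 8 untreated libraries, all 8 libraries of batch 2 and all 5 DC2 libraries had 0 counts. The mean of TLI DC1a cells (4.45 ± 7.39 CPM, SD, n = 4) was at least 40.4-fold higher than untreated DC1a cells, with a spread larger than the mean (edgeR adjusted p = 0.423). The DC1a libraries of TLI pools 1 and 2 also had summed erythroid markers of 51242 and 10552 CPM, against 60.0 and 148 CPM in those of pools 4 and 3. The genes whose levels were most like Aldh1a1 over the 23 libraries were the erythroid regulators Gfi1b, Hemgn and Klf1 (Pearson's r = 0.77, 0.75 and 0.74). In TLI DC3 libraries the erythroid sums reached 59849 CPM, while Aldh1a1 did not exceed 0.0948 CPM. In TLI DC2 libraries they reached 21753 CPM, with 0 counts of Aldh1a1. The part of erythroid RNA in the Aldh1a1 values was not tested.

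Aldh1a2 (chromosome 9, 71215789 to 71296243, plus strand), the retinaldehyde dehydrogenase typical of migratory dendritic cells, was found in DC1a cells and in DC1b cells of TLI mice. In DC1a cells it was at 1.81 and 2.78 CPM in untreated libraries and at 4.43, 12.8, 0.973 and 0 CPM in TLI pools 1 to 4. In DC1b cells it was at 0 in both untreated libraries and at 2.17, 10.3, 0 and 13 CPM in TLI pools 1 to 4. It was at 4.28 CPM in the DC3 library of TLI pool 2 and had 0 counts in the other 5 DC3 and all 5 DC2 libraries. TLI DC1b cells (6.37 ± 6.27 CPM, SD, n = 4) were at least 48.7-fold higher than untreated DC1b cells and at least 59.4-fold higher than TLI DC2 cells, and each comparison overlapped through the library at 0. Neither was called by edgeR (adjusted p = 0.324 and 0.368), whereas limma voom called the first (adjusted p = 0.0225, with or without a block for the pool of mice) and DESeq2 called both (adjusted p = 0.0325 and 0.0399). These DC1b groups also differed in plasmacytoid, monocyte and neutrophil markers, as given above. The highest level, 13 CPM, was in the library of TLI pool 4, which had Cd8a at 0.327 CPM, neutrophil markers at 9216 CPM and the lowest sum of mature dendritic cell markers of the TLI DC1b libraries (232 CPM). Untreated DC1a cells (2.30 ± 0.683 CPM, SD, n = 2) were at least 16.5-fold higher than untreated DC2 cells (edgeR adjusted p = 0.414). Summed markers of mature or migratory dendritic cells, Ccr7 among them, were highest in the DC1a library of TLI pool 2 (1713 CPM), which also had the highest Aldh1a2 of the DC1a libraries. They were lowest for DC1a cells in pool 4 (156 CPM), where Aldh1a2 was at 0, but they were also 832 and 916 CPM in untreated DC2 libraries, which had 0 counts of Aldh1a2. The part of all these markers in the Aldh1a2 values was not tested.

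Tgfb1 (chromosome 7, 25687002 to 25705077, plus strand), the TGF-beta of leukocytes, was the most evenly expressed of the 10 genes. In DC1a cells it was at 6.27 and 10.4 CPM in untreated libraries and at 16, 27.8, 15.2 and 13.3 CPM in TLI pools 1 to 4. All 4 TLI DC1a libraries were above both untreated ones, as for 4.36% of all genes, and 13.6% did not overlap in either direction. In DC1b cells it was at 15.7 and 16.4 CPM in untreated libraries and at 19.6, 29.4, 6.81 and 10.7 CPM in TLI pools 1 to 4. In DC2 cells it was at 23.9 and 17.8 CPM in untreated libraries and at 34.4, 41.7 and 23 CPM in TLI pools 1, 3 and 4. In DC3 cells it was at 12.7 CPM in both untreated libraries and at 12.9, 32.1, 17.1 and 9.79 CPM in TLI pools 1 to 4. In these 3 subsets the ranges of the 2 treatments overlapped. Group means ran from 33.1 ± 9.42 CPM (SD, n = 3) in TLI DC2 cells, through 20.8 ± 4.29 (n = 2) in untreated DC2 cells, 18.1 ± 6.59 (n = 4) in TLI DC1a, 18.0 ± 9.86 (n = 4) in TLI DC3, 16.6 ± 10.04 (n = 4) in TLI DC1b, 16.1 ± 0.470 (n = 2) in untreated DC1b and 12.7 ± 0.0547 (n = 2) in untreated DC3 cells, to 8.33 ± 2.90 (n = 2) in untreated DC1a cells. Neighbours in this order overlapped except among the last 3 groups, whose pairs had 2 libraries on each side.

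No difference of Tgfb1 was called in the 16 comparisons of subsets or treatments. The ratio of TLI to untreated DC1a means over all pools was 2.17. The log2 fold change, fitted at batch 1, was 1.58 ± 0.56 (SE, 95% interval 0.40 to 2.76, edgeR adjusted p = 0.403), while DESeq2 called it (adjusted p = 0.0185). The log2 fold change of TLI over untreated was 0.60 in DC1b (95% interval -0.51 to 1.71), 1.23 in DC2 (-0.02 to 2.47) and 0.97 in DC3 cells (-0.17 to 2.11). The values of all subsets had the same sign, but they share the same batch term, estimated from TLI libraries alone, so their signs are not independent. Mean Tgfb1 was 24.6 CPM in TLI libraries of batch 1 and 17.2 CPM in those of batch 2. In DC1b cells it was 16.6 CPM over all TLI libraries and 16.1 CPM over untreated ones. EdgeR's test of whether the fold changes differ between subsets gave an adjusted p = 0.941, which does not show that they are equal. In TLI mice Tgfb1 in DC2 cells was above DC1b cells by 1.09 on the log2 scale (95% interval 0.13 to 2.04, edgeR adjusted p = 0.441) and above DC1a cells by 0.76 (-0.17 to 1.70, edgeR adjusted p = 0.387).

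**Figure D4:**
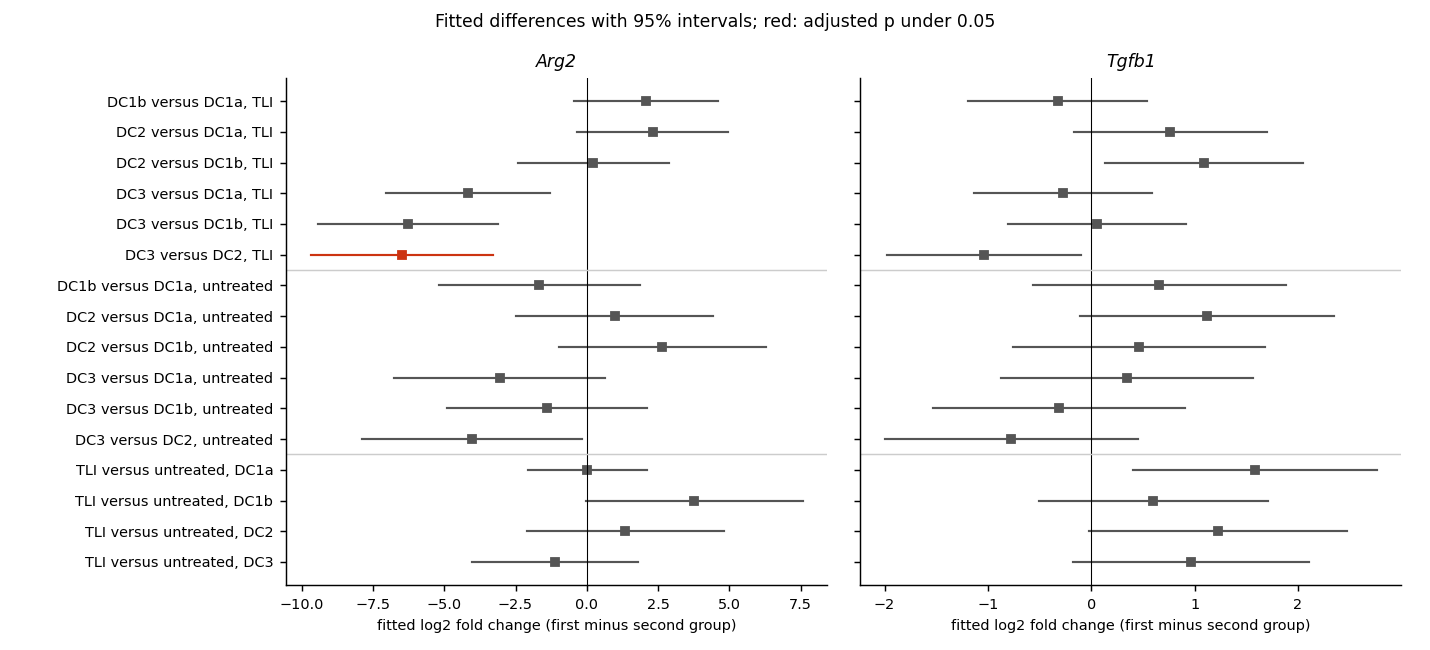
Fitted log2 fold changes (squares) with 95% intervals (lines) of Arg2 (left) and Tgfb1 (right) in the 16 comparisons, first named group minus second. The only interval drawn in red (adjusted p under 0.05) is that of Arg2 in DC3 against DC2 cells of TLI mice, at -6.49, and the widths of the Arg2 intervals are larger than those of Tgfb1.

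Tgfb2 and Tgfb3, TGF-beta ligands best known from stroma and epithelium, were low and were found mostly in DC1a cells. Tgfb3 (chromosome 12, 86056745 to 86079041, minus strand) was above the floor in all 6 DC1a libraries, at 0.314 and 0.270 CPM in untreated libraries and at 0.211, 3.27, 2.49 and 0.842 CPM in TLI pools 1 to 4. It had 0 counts in all 6 DC1b libraries and 0.163 CPM or less in the 5 DC2 libraries. In DC3 cells it was at 1.23 and 0.0783 CPM in untreated libraries and at 0, 0.111, 0 and 0.769 CPM in TLI pools 1 to 4. The DC1a and DC1b ranges did not overlap in either treatment, and this was true of 6.07% of all genes in TLI and 47.9% in untreated mice. In TLI mice DC1a cells (1.70 ± 1.42 CPM, SD, n = 4) were at least 16.5-fold higher than DC1b cells (edgeR adjusted p = 0.111) and at least 15.9-fold higher than DC2 cells (edgeR adjusted p = 0.216), with no overlap there either, as for 15.4% of all genes. DESeq2 called the difference between DC1b and DC1a cells (adjusted p = 0.0117), and so did edgeR without a filter on low counts (adjusted p = 0.0492).

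Tgfb2 (chromosome 1, 186622792 to 186705989, minus strand) was at 0.941 and 1.47 CPM in untreated DC1a libraries and at 1.76, 0, 0 and 4.97 CPM in DC1a libraries of TLI pools 1 to 4. In the other subsets it exceeded the floor once, at 1.05 CPM in the DC2 library of TLI pool 3, and all 6 DC1b libraries had 0 counts. TLI DC1a cells (1.68 ± 2.34 CPM, SD, n = 4) were at least 16.3-fold higher than DC1b cells and at least 15.2-fold higher than DC3 cells, but both comparisons overlapped at 0 (edgeR adjusted p = 0.241 and 0.339). Tgfb2 was thus above the floor in 4 DC1a libraries, which Tgfb3 had to share since it was above the floor in all 6. Both genes had 0 counts in DC1b cells. Summed markers of stroma and endothelium were 6.27 to 15.6 CPM in DC1a libraries of TLI mice and 7.20 to 14.8 CPM in DC1b libraries of the same mice (8.95 to 8.96 and 47.4 to 70.3 CPM in untreated mice), and their part in the values of Tgfb2 and Tgfb3 was not tested. Antisense genes that overlap exons of Tgfb2 and Tgfb3, Gm29491 and Gm37804, had 0 counts in every library.

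Il10 (chromosome 1, 131019845 to 131024974, plus strand), the gene of the cytokine that dampens antigen presentation, was found mainly in DC1a cells and in DC1b cells of TLI mice and had 0 counts in all 5 DC2 libraries. In DC1a cells it was at 3.28 and 0 CPM in untreated libraries and at 0.668, 0, 0.568 and 2.58 CPM in TLI pools 1 to 4. In DC1b cells it was at 0 in both untreated libraries and at 8.02, 6.75, 0.138 and 0 CPM in TLI pools 1 to 4. In DC3 cells it was at 0.901 CPM in untreated pool 2, at 0.0569 CPM (2 counts) in TLI pool 4 and at 0 in the other 4 libraries. The 2 highest levels were thus those of the DC1b libraries of TLI batch 1. TLI DC1b cells (3.73 ± 4.25 CPM, SD, n = 4) were at least 28.5-fold higher than untreated DC1b cells and at least 34.8-fold higher than TLI DC2 cells. Both groups overlapped through the DC1b library at 0, and neither difference was called (edgeR adjusted p = 0.391 and 0.410). Those 2 libraries had monocyte and macrophage marker sums of 22148 and 26720 CPM, the highest of the 23 libraries, against 9505 and 8184 CPM in the DC1b libraries of pools 3 and 4. TLI DC2 libraries had sums of 6445 to 15658 CPM with 0 counts of Il10. TLI DC1a libraries had sums of 618 to 2092 CPM with Il10 at 0 to 2.58 CPM. The part of monocyte and macrophage RNA in the Il10 levels was not tested.

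Comparing treatments, no member was called in 36 combinations of a tested member and a subset by edgeR, with 6 at an unadjusted p under 0.05 and 4 called by DESeq2. Over all genes 0.128% of such combinations were called by edgeR and 10.4% had an unadjusted p under 0.05. DESeq2 called 3559 of the 78388 combinations over all genes. Limma voom with the pool as a replicate block called 2, Aldh1a2 and Arg2 in DC1b cells (adjusted p = 0.0225 and 0.0486), and without the block it called the same 2 (adjusted p = 0.0225 and 0.0484). In the untreated pairs of subsets no member was called in 54 combinations by edgeR, with 2 at an unadjusted p under 0.05 and 0 called by DESeq2, beside 0.76% called and 10% at such a p over all genes by edgeR. Here DESeq2 called 7394 of 117582 combinations over all genes. Whether the difference between TLI and untreated mice varied by subset was tested as an interaction. None of the 9 members was called by edgeR (lowest unadjusted p = 0.0688, for Ido1), with 0 at an unadjusted p under 0.05 and 0 called by DESeq2, and of all genes 0.0357% were called by edgeR and 7.82% had such a p. The calls over all genes by limma voom, and by DESeq2 for the interaction, are given in the last section.

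Some other genes of the same pathways were called between subsets. Of 18 other genes of arginine and polyamine metabolism, 15 were tested, and 7 of their 90 combinations with a pair of subsets in TLI mice (7.78%, beside 1.38% over all genes) were called, all of them for Sat1 and Sms. In untreated pairs 5 of 90 (5.56%, beside 0.76%) were called, all for Sat1, and between treatments 1 of 60 (1.67%, beside 0.128%). Sat1, the acetyltransferase that starts the breakdown of polyamines, was at 1473 to 2386 CPM in TLI DC2, 1651 to 2043 CPM in TLI DC1b, 562 to 684 CPM in TLI DC1a and 287 to 362 CPM in TLI DC3 libraries. It was lower in DC3 than in DC2 cells of TLI mice (log2 fold change -2.38 ± 0.18, SE, edgeR adjusted p = 6.16e-06) and of untreated mice (-2.99 ± 0.25, edgeR adjusted p = 6.98e-06), and its lowest mean was, like that of Arg2, in DC3 cells of both treatments. Sat1 was also higher in TLI than in untreated DC1b cells (log2 fold change 1.28 ± 0.22, edgeR adjusted p = 0.0146), at 1651 to 2043 against 848 to 1024 CPM. That call was lost without untreated DC1b pool 1 or 2 (edgeR adjusted p = 0.245 and 0.0948). Sms, which makes spermine, was at 46.6 to 135 CPM in DC3 and 5.24 to 23.5 CPM in DC2 libraries of TLI mice (log2 fold change 2.71 ± 0.51, edgeR adjusted p = 0.00881), a call that was lost without the DC2 library of TLI pool 1 (edgeR adjusted p = 0.0548). In untreated mice the highest mean of Sms was in DC1b cells (104 CPM).

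Of 28 genes of TGF-beta activation and signalling, 25 were tested, and 6 of 150 combinations (4%, beside 1.38% over all genes) were called in TLI pairs, 6 of 150 (4%, beside 0.76%) in untreated pairs and 2 of 100 (2%, beside 0.128%) between treatments. Tgfbr1, the type I receptor, made up 4 of the 6 in each. It was at 6.80 to 40.3 CPM in TLI DC1a and 15.2 to 15.9 CPM in untreated DC1a libraries, against 33.4 to 366 CPM in TLI DC1b and 206 to 299 CPM in untreated DC1b libraries. The TLI ranges overlapped. Its log2 fold change in DC1b against DC1a cells was 2.67 ± 0.31 in TLI (edgeR adjusted p = 6.75e-05) and 3.72 ± 0.45 in untreated mice (edgeR adjusted p = 0.000500). Both calls were kept when each library was left out in turn, but both were lost without a batch term (edgeR adjusted p = 0.0917 and 0.292). Within TLI pools of batch 1 the log2 fold change was 2.11 and was not called. DC1a cells, in which Tgfb3 was detected in every library, thus had a lower level of the receptor gene than DC1b cells. Tgfbr1 was also low in DC3 cells, with means of 31.2 CPM in TLI and 24.3 CPM in untreated mice, and there Tgfb3 was above the floor in 2 of 6 libraries. Tgif1, a repressor of SMAD targets, was lower in DC3 than in DC2 cells in TLI mice (log2 fold change -2.13 ± 0.37, edgeR adjusted p = 0.00452) and in untreated mice (-2.49 ± 0.49, edgeR adjusted p = 0.0206). The untreated call was lost without DC3 pool 1, DC3 pool 2 or DC2 pool 2 (edgeR adjusted p = 0.121, 0.293 and 0.164). Tgfbi, a matrix protein gene named for its induction by TGF-beta, was at 4.88 to 11.1 CPM in untreated and 68.1 to 349 CPM in TLI DC1b libraries (log2 fold change 4.85 ± 0.72, edgeR adjusted p = 0.00667). The call was lost without untreated DC1b pool 1 or 2 (edgeR adjusted p = 0.0711 and 0.112). The fitted change of Tgfbr1 in the same comparison was -1.91 ± 0.37 (edgeR adjusted p = 0.0257), but the groups overlapped, with 1 or more TLI libraries above both untreated ones, and without a batch term it was -0.20 (edgeR adjusted p = 0.975). These are the DC1b libraries that differ in plasmacytoid, monocyte and neutrophil markers, whose part was not tested.

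Of 20 genes of the kynurenine pathway and the aryl hydrocarbon receptor, 18 were tested, with 3 of 108 combinations (2.78%, beside 1.38% over all genes) called in TLI pairs and 3 of 108 (2.78%, beside 0.76%) in untreated pairs. Between treatments edgeR called 0 of 72, with 9 at an unadjusted p under 0.05 and 5 called by DESeq2. Tiparp, a target of this receptor, was higher in DC2 than in DC1a cells in TLI (log2 fold change 1.35 ± 0.33, edgeR adjusted p = 0.0309) and in untreated mice (2.58 ± 0.46, edgeR adjusted p = 0.00625), and Ahr itself was higher in DC2 than in DC1b cells of untreated mice (2.45 ± 0.41, edgeR adjusted p = 0.00864). These calls were not stable. That of Tiparp in TLI mice was lost without DC2 pool 1 or 3 or any one DC1a library of TLI mice, and that in untreated mice without DC1a pool 1, DC1a pool 2 or DC2 pool 2 (edgeR adjusted p = 0.143, 0.0765 and 0.0835). That of Ahr was lost without DC1b pool 1, DC1b pool 2 or DC2 pool 2 of untreated mice (edgeR adjusted p = 0.189, 0.103 and 0.0945). Ido1 had 0 counts in these DC2 cells. Slc3a2, a chain of the transporter that carries tryptophan and kynurenine, was lower in DC1b than in DC1a cells of TLI mice (-0.92 ± 0.20, edgeR adjusted p = 0.0279), a call lost without any one of 8 libraries, TLI DC1a and DC1b pools 1, 2 and 3, DC2 pool 1 and DC3 pool 2 (edgeR adjusted p = 0.0533 to 0.144). Of 15 genes of IL-10 regulation and signalling, 12 were tested, and the single call of 72 TLI combinations (1.39%, beside 1.38% over all genes) was Maf, a transcription factor that can drive Il10. Maf was at 30.7 to 48.5 CPM in TLI DC2 and 0.176 to 3.81 CPM in TLI DC1a libraries (log2 fold change 4.45 ± 1.16, edgeR adjusted p = 0.0427), and the call was lost without any one of 15 of the 23 libraries (edgeR adjusted p = 0.05004 to 0.114). Il10 had 0 counts in DC2 cells. Of 27 other retinoid genes 17 were tested, and edgeR called 0 of 102 combinations in TLI pairs, 0 of 102 in untreated pairs and 0 of 68 between treatments. At an unadjusted p under 0.05 these counts were 15, 8 and 8, and DESeq2 called 9, 3 and 3, while 12.9%, 10% and 10.4% of all genes had such a p. Over all genes DESeq2 called 8619 of 117582 combinations in TLI pairs, 7394 of 117582 in untreated pairs and 3559 of 78388 between treatments.

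The genes most like a member were sought among 10145 genes with a mean of at least 5 CPM, by Pearson's r of log2 CPM over the 23 libraries, which share pools, subsets and batches. For Arg2 these were Ms4a7 (r = 0.86), Calhm6 (0.82) and Hebp1 (0.80), of which Ms4a7 had means of 83.2 CPM in TLI DC2, 65.3 CPM in untreated DC2, 3.98 CPM in TLI DC3 and 4.27 CPM in untreated DC3 cells. For Tgfb1 they were Cfp, the gene of properdin (0.81), Acat1 (0.78) and Jkamp (0.73). Cfp shared the low mean of untreated DC1a cells (18.1 CPM) and the high means of DC2 cells (125 CPM in TLI, 164 CPM in untreated). For the other tested members they were Creg1, Cd1d1 and Isoc1 for Aldh1a2 (0.74, 0.74 and 0.72), Tbc1d30, Agpat4 and Plcl2 for Arg1 (0.75, 0.73 and 0.72), and Eif2s1, Lrrc1 and Snx22 for Tgfb3 (0.70, 0.66 and 0.64). They were Rplp0, Gabarap and Gm9625 for Il10 (0.67, 0.67 and 0.67), Cxcr6, Tspan32 and Glrx for Ido1 (0.64, 0.62 and 0.61) and Mpc2, Lpar6 and Ptgis for Tgfb2 (0.58, 0.56 and 0.56). These rest on members that were at the floor in most libraries.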

How the data were processed

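RNA of 23 libraries was amplified with a SMARTseq v4 ultra-low-input kit and made into libraries with KAPA HyperPlus. According to the submitters' notes and methods, the authors trimmed reads with Trimmomatic, aligned them with HISAT2 to GRCm38 and counted them with StringTie. The deposited values were estimated counts per gene, not normalized, and were rounded to whole numbers, so that the count test was run on estimated counts where whole counts had been foreseen. No strand setting is given in the sources used here, so reads of genes that overlap on opposite strands cannot be told apart. Of 47729 genes, 47224 carried a symbol and 19597 passed edgeR's filterByExpr. The 10 members and the pathway and marker lists were chosen with earlier results of these data known.

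Differences were tested by edgeR's quasi-likelihood test (edgeR 4.0.16, R 4.3.3) on all 23 libraries, with 8 groups of treatment and subset, batch as a covariate and TMM scaling. The batch term was estimated from TLI libraries alone, since every untreated library is of batch 1. Fitted fold changes thus compare TLI with untreated at batch 1, while ratios of means take all pools and are not adjusted for batch. P-values were adjusted by Benjamini-Hochberg over all genes of a comparison, and a call is an adjusted p under 0.05. They rest on the spread between libraries of a group, in which differences between pools cannot be told apart from those of sorting and amplification. The main fit took the libraries as independent and did not use the pairing of subsets within a pool. Each standard error (SE) of a log2 fold change was computed back from the edgeR test, as its absolute value divided by the square root of the F statistic. The 95% intervals were built from these standard errors. Levels are CPM of the library total. A fold against a group at or under the floor of 3 counts is a lower bound, taken against the mean of the libraries' floors. RPKM used the union of annotated exons. The script was tested on simulated data. Alternatives were DESeq2 1.42.0, limma 3.58.1 voom, other scalings and filters, no batch term, each batch alone, TLI libraries alone and leaving out each library. Besides the members, the text names the 3 genes most correlated with each tested member, and per list the 3 genes called most often in each kind of comparison, of which some are given by count only.

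The labels number pools within a treatment, so subsets with 1 number came from the same mice. Deviations from the values fitted for group and batch correlated between same-pool libraries at -0.162 to 0.0673 (33 pairs) and between different pools at -0.225 to 0.200 (75 pairs). The replicate block was a fixed pool term in edgeR for subset pairs and the interaction, and duplicateCorrelation with limma voom for TLI against untreated, where a fixed pool term could not be fitted.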

Additional observations from a re-analysis of the deposited data

Results flagged for a closer look

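In 7 of 21 groups of 4 libraries in which a member was detected, 1 library stood apart from the other 3 by Dixon's criterion. For normally distributed values chance meets it in about 1 in 20 groups, but a gene at 0 in 3 of 4 libraries meets it by construction, as in 4 of the 7, so the 2 rates cannot be compared. In TLI DC1b cells this was pool 1 for Ido1 (11.4 CPM, others 0), Ido2 (0.303 CPM, others 0), Arg1 (0.953 CPM, others 0) and Aldh1a1 (1.08 CPM, others 0 to 0.0733). In TLI DC1a cells it was pool 1 for Aldh1a1 (15.4 CPM, others 0 to 2.39). In TLI DC3 cells it was pool 2 for Aldh1a2 (4.28 CPM, others 0) and pool 4 for Tgfb3 (0.769 CPM, others 0 to 0.111). These groups are not independent, since 4 of the 7 values belong to 1 library.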

How the results depend on the processing

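Of 50 fold changes recomputed, 35 of members and 15 of pathway genes, none changed its sign in the 1613 values of the alternatives, while 112 values lost a call and 19 gained one. The 50 are the member differences at an unadjusted p under 0.05 and the others that are printed. The choices of leaving out the 3 libraries with neutrophil markers above 2000 CPM and of limma voom without a block were made after seeing the data. In the TLI subset pairs the number of member calls was 1, and it was 0 with the replicate block, without a batch term, in batch 1 alone, in batch 2 alone and without those 3 libraries, 2 with the 1 CPM filter and with TLI libraries alone, 3 without a filter, 8 with DESeq2 and 0 to 2 when each library was left out. Over all genes these pairs gave 1619 calls, and 1317 with the replicate block, 8619 with DESeq2, 912 without a batch term, 18 in batch 1 alone, 508 in batch 2 alone and 1081 to 1643 with each library left out. Untreated pairs gave 894 calls over all genes, and 7394 with DESeq2, 308 without a batch term and 364 to 1077 with each library left out. TLI against untreated gave 0 member calls, and 2 with the replicate block, which here needed limma voom, 2 with voom without it and 4 with DESeq2. Over all genes it gave 100 calls, and 1053 with the block, 1054 with voom without it, 330 without a filter, 3559 with DESeq2, 28 without a batch term, 15 in batch 1 alone and 21 to 145 with each library left out. The gain came with voom and not with the block. Of the 100 calls 50% were higher in TLI, against 65.8% with DESeq2. The share that was higher in the first subset of a pair went from 52.1% to 48.2% with DESeq2 in TLI mice and from 48.5% to 57.8% without a batch term in untreated mice. The interaction gave 7 calls over all genes, and 96 without a filter, 19 with the 1 CPM filter, 392 with DESeq2, 3 without a batch term, 16 without the 3 libraries and 2 to 31 with each library left out. The causes of these changes were not tested. With 2 untreated pools a subset, and 8 of the 10 members at or under the floor in 14 or more of 23 libraries, a difference that was not called may still exist below what this depth can show.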
